A study of Mus musculus with 12 samples.

Results

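Gapdh and the 9 other enzymes that carry glucose to pyruvate in neurons were followed through RNA sequencing of mouse frontal cortex. The 10 enzymes were Hk1, Gpi1, Pfkm, Aldoa, Tpi1, Gapdh, Pgk1, Pgam1, Eno2 and Pkm, taken by gene symbol from a count table of 54532 genes. In GENCODE M21 the 10 symbols belonged to 11 identifiers, because Aldoa had a second identifier with 384 counts against 303692 for the one used. All 10 passed the filter on low counts, as did 17307 genes in all. Gapdh was singled out because its level differed between genotypes in these same libraries, so its genotype difference and that of the enzymes set beside it are given as descriptions. Counts of calls in that contrast are printed for scale and support nothing.

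The study asked what changes in the cortical transcriptome when the small GTPase H-Ras is missing in a mouse model of amyloid disease. All 12 mice carried the APP/PS1 transgenes and were 9 months old. 6 were APP/PS1 and 6 were APP/PS1/Hras-/-, with 3 males and 3 females in each genotype. No mouse without the transgenes is compared here, so every difference is one between amyloid-model brains with and without Hras. Mice of a group are numbered in the order of the deposited samples, and equal numbers do not mark related mice.

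Glycolysis splits one glucose into a pair of three-carbon molecules and returns ATP and NADH. Hexokinase traps glucose in the cell, glucose phosphate isomerase and phosphofructokinase prepare it, and aldolase and triose phosphate isomerase cut it and merge the products. GAPDH carries out the oxidation step that makes NADH, and phosphoglycerate kinase, phosphoglycerate mutase, enolase and pyruvate kinase then recover ATP. In brain the pathway supplies synapses and glia, and Gapdh is so abundant in most tissues that it is commonly used as a reference transcript. The mouse genome also holds many processed pseudogenes of Gapdh, copies of its spliced mRNA inserted elsewhere, which makes reads of this gene hard to place.

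Total counts per library ran from 13984692 to 20174131. Hras, the targeted gene, was at 73.7 to 102 CPM in the 6 APP/PS1 libraries and at 19.4 to 23.4 CPM in the 6 knockout libraries (log2 difference -1.95, SE 0.08). Levels are given as CPM, counts per 1000000 counts of the library, scaled between libraries with TMM factors. The 10 excitatory neuron markers of cortex were present in every library and summed to 5182 to 6418 CPM. Choroid plexus markers, with 6 of 7 counted in every library, summed to 11.4 to 599 CPM in 11 libraries and to 3117 CPM in APP/PS1 female 2. The libraries APP/PS1/Hras-/- male 1 and APP/PS1 female 2 stood apart from the rest on the first principal component of an earlier analysis. RNA integrity numbers were 7.8 to 8.3 in APP/PS1 males, 8.5 to 8.6 in APP/PS1 females, 8.6 to 8.7 in knockout males and 8.3 to 8.5 in knockout females.

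The sequences come first, because Gapdh shares most of its own with other loci. Gapdh lies on the minus strand at chr6:125161715-125166467 (GRCm38), and its coding sequence has 999 bases. 70 annotated pseudogenes matched the Gapdh transcript at 95% identity or more over at least 200 bases. A pair of them held most pseudogene counts. Gm13394, a processed pseudogene at chr2:28933610-28934609 on the minus strand, differed from the Gapdh coding sequence by A346C alone, with 998 of 999 bases identical. Gm5559, a processed pseudogene at chr5:95861714-95862715 on the plus strand, differed by T385A alone. Positions count from 1 at the A of the Gapdh start codon, with the base of Gapdh written first. The stretches below, from GENCODE M21 transcripts on GRCm38, run 5′ to 3′ along the coding strand, and the capital marks the base at which each pair differs. The first pair covers positions 306 to 386 and the second pair positions 345 to 425.
Gapdh, first pair: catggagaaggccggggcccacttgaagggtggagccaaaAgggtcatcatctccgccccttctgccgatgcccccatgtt
Gm13394: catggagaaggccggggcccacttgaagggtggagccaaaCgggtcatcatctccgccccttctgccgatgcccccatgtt
Gapdh, second pair: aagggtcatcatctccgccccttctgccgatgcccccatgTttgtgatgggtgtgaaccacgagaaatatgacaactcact
Gm5559: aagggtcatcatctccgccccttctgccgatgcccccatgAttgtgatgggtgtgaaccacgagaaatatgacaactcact

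These single bases set how many places a window of read length matches. Reads were 150 bases long. All 150 windows of that length over the C of Gm13394 were found in no other annotated gene, and the same held for all 150 windows over the A of Gm5559. The matching Gapdh windows over position 346 were found in 18 to 24 other genes (median 21), and those over position 385 in 16 to 24. Of the 850 windows inside the Gapdh coding sequence, 100% occurred word for word in at least one other gene, and of all windows of its 1272-base transcript 81.6% did.

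Counts placed at Gapdh were lower in the knockout cortex in males and in females. Each of the 9 other enzymes was slightly lower in knockout males and slightly higher in knockout females. In cortex as a whole, fewer cells that make a transcript and less of it per cell cannot be told apart. For Gapdh, reads placed at its copies instead cannot be told apart from either. In APP/PS1 males Gapdh stood at 60.9, 58.1 and 58.5 CPM, and in knockout males at 41.8, 39.9 and 44.4 CPM. In APP/PS1 females it stood at 53.8, 43.4 and 52.5 CPM, and in knockout females at 43.3, 31.5 and 29.6 CPM. The knockout and APP/PS1 values did not overlap within males or within females, in the contrast by which Gapdh was chosen. Over all mice the groups met at their edges, because APP/PS1 female 2 at 43.4 CPM lay below knockout male 3 at 44.4 CPM.

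The Gapdh mean was 54.5 ± 6.27 CPM with Hras and 38.4 ± 6.30 CPM without it (SD, n = 6), a level of 70.4%. The log2 difference from an additive edgeR model of sex and genotype was -0.51 (SE 0.09, 95% interval -0.70 to -0.32). It was -0.49 (SE 0.13) in males and -0.52 (SE 0.13) in females, with RNA integrity as a further term it was -0.53, and without the pair of libraries that stood apart it was -0.55. By edgeR's quasi-likelihood test with Benjamini-Hochberg adjustment 0 of the 10 enzymes had an adjusted p under 0.05 in this contrast, where 0.0173% of all tested genes did. At an unadjusted p under 0.05 there was 1, where 1.68% of all genes were. DESeq2 called 1 and limma-voom 0. Because Gapdh was picked on this contrast, nothing is read from these counts.

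**Figure D1:**
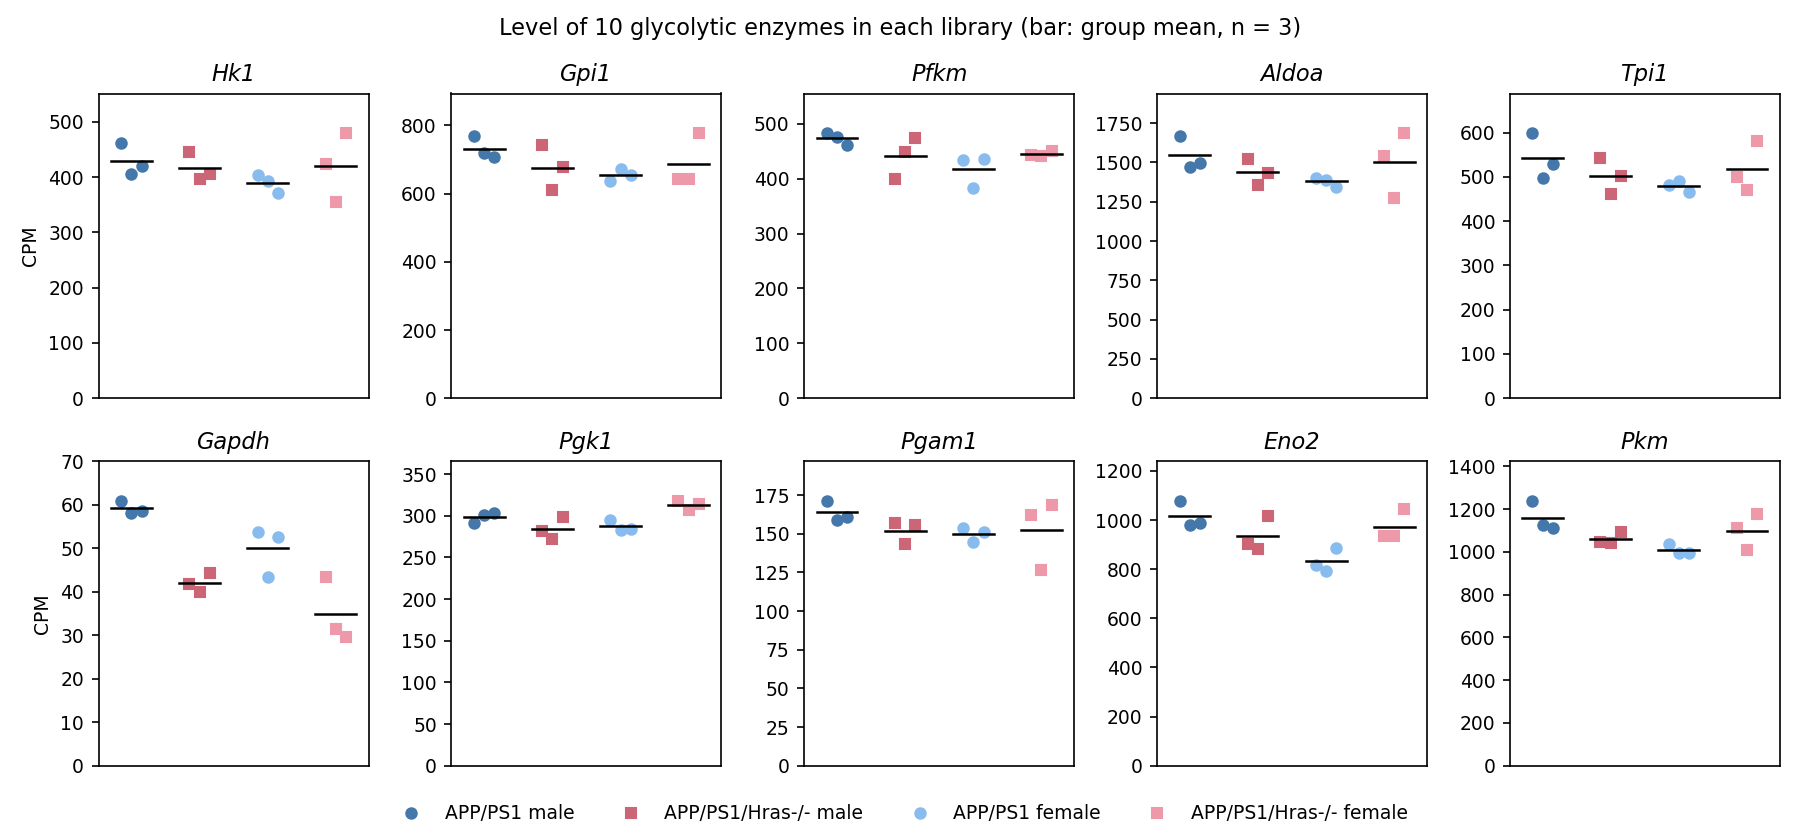
Level of each of the 10 enzymes in CPM (vertical axes from 0), 1 point per library, with the mean of each group of 3 mice as a bar. Gapdh lies at 29.6 to 44.4 CPM in the 6 knockout libraries and at 43.4 to 60.9 CPM in the 6 APP/PS1 libraries, and the genotypes overlap over both sexes for Gapdh as for the 9 other enzymes, though not for Gapdh within either sex.

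The enzymes before Gapdh in the pathway kept nearly equal means. Hk1, the first enzyme and the one that traps glucose, averaged 409 ± 30.9 CPM in APP/PS1 mice and 418 ± 42.5 CPM in the knockouts. Gpi1, the isomerase, averaged 693 ± 48.0 and 682 ± 64.7 CPM, and Pfkm, the muscle-type phosphofructokinase subunit also made in brain, averaged 445 ± 36.7 and 443 ± 24.5 CPM. Aldoa, which cuts the six-carbon sugar, averaged 1463 ± 114 and 1469 ± 147 CPM. Each of these differences was smaller than the spread between mice.

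Tpi1 hands its product directly to GAPDH and serves as the nearest comparison. In males it was at 599, 498 and 530 CPM in APP/PS1 and at 542, 461 and 502 CPM in knockout mice. In females it was at 482, 490 and 465 CPM in APP/PS1 and at 500, 470 and 580 CPM in knockout mice. The genotypes overlapped in both sexes, and the log2 difference was -0.00065 (SE 0.08).

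Over both sexes the enzymes after Gapdh also had close means, but each of the 4 had genotypes that did not overlap in 1 sex. Of all tested genes 10.3% did not overlap in males and 9.34% in females. Pgk1, which makes the first ATP after Gapdh, was at 291, 300 and 303 CPM in APP/PS1 males, 282, 272 and 298 CPM in knockout males, 295, 283 and 284 CPM in APP/PS1 females and 318, 307 and 314 CPM in knockout females. Its knockout females all lay above its APP/PS1 females, opposite in direction to Gapdh. Pgam1, the mutase, averaged 157 CPM with Hras and 152 CPM without it.

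Eno2, the neuronal enolase, was at 1079, 980 and 989 CPM in APP/PS1 males and at 904, 882 and 1015 CPM in knockout males. In females it was at 818, 794 and 885 CPM in APP/PS1 and at 935, 933 and 1046 CPM in knockout mice. Pkm, the pyruvate kinase gene, was at 1239, 1125 and 1110 CPM in APP/PS1 males and at 1046, 1040 and 1093 CPM in knockout males. In males the knockout values of Pkm lay below all APP/PS1 values, and in females those of Eno2 lay above them.

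Across the 9 enzymes other than Gapdh, log2 genotype differences ran from -0.04 (Pgam1) to 0.05 (Eno2), with 4 above zero and 5 below. Their median was -0.00065, beside 0.0024 for all genes tested. No 95% interval of the 9 reached beyond 0.21 from zero, and Gapdh stood at -0.51. When genotypes were compared within each sex, Gapdh was the 1 enzyme of 10 whose knockout libraries lay below all APP/PS1 libraries in both sexes. Of all tested genes 0.11% shared this pattern. Because Gapdh was chosen on this contrast, the pattern is a description and supports nothing. In males alone 3 enzymes did not overlap (Gapdh, Pgam1 and Pkm, 10.3% of all genes), and in females alone 4 did not (Gapdh, Pfkm, Pgk1 and Eno2, 9.34%). Over both sexes pooled 0 of 10 did not overlap, against 0.116% of all genes.

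**Figure D2:**
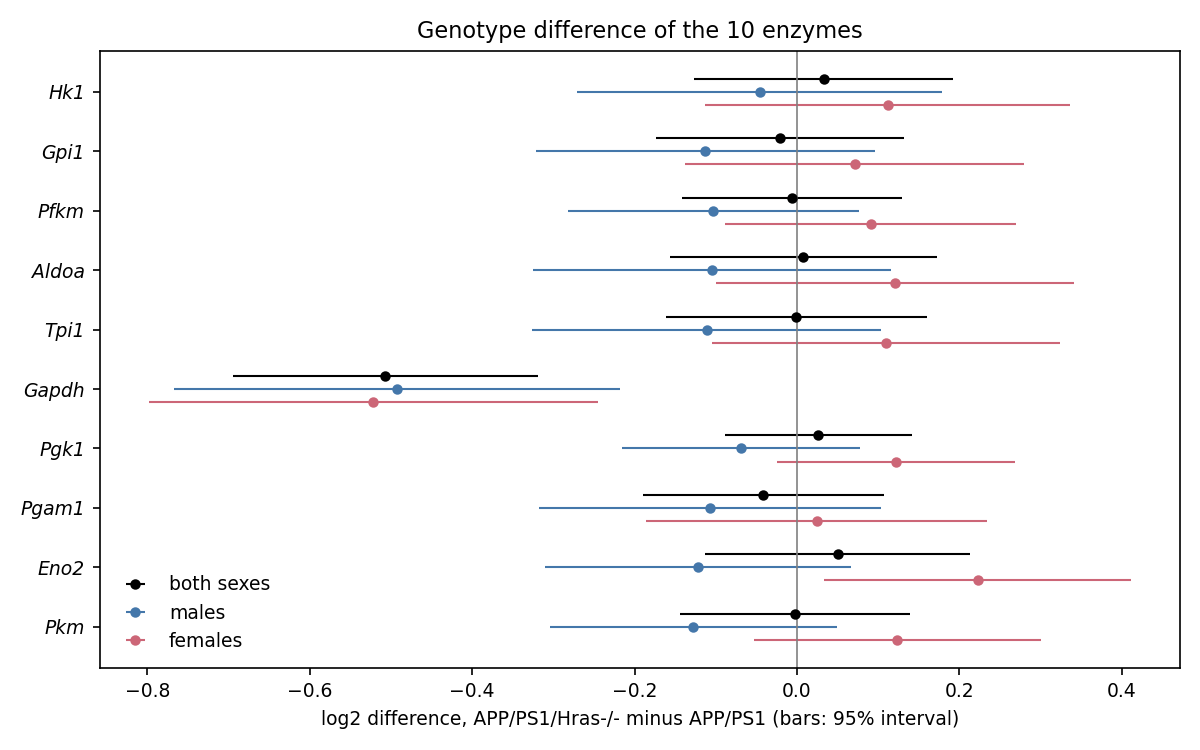
Log2 difference between APP/PS1/Hras-/- and APP/PS1 mice for each enzyme, in both sexes together, in males and in females, with 95% intervals as bars. Gapdh sits at -0.51, -0.49 and -0.52, while the 9 other enzymes lie between -0.13 and 0.05 in the pooled and male estimates and between 0.02 and 0.22 in females.

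The contrast between Gapdh and the pathway does not need scaling between libraries. Gapdh made up 0.893%, 0.938% and 0.938% of the summed counts of the 10 enzymes in APP/PS1 males and 0.941%, 0.777% and 0.931% in APP/PS1 females. It made up 0.688%, 0.707% and 0.727% in knockout males and 0.707%, 0.563% and 0.442% in knockout females. On this share all 6 knockout libraries lay below all 6 APP/PS1 libraries. In CPM, where Gapdh did overlap, 0.116% of all genes did not, and no such percentage is given for the share. Because Gapdh was chosen on this contrast, nothing is read from the separation. The log2 ratio of Gapdh to the geometric mean of the other 9 was -3.33 ± 0.11 in APP/PS1 and -3.85 ± 0.28 in knockout mice (SD, n = 6). That geometric mean was 546 ± 38.7 CPM with Hras and 547 ± 35.1 CPM without it.

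Over the 12 libraries, which share the scaling, the 36 pairs among the 9 other enzymes had a median Pearson r of 0.676 (range 0.189 to 0.967). Gapdh had a median r of 0.0845 with the same 9, from -0.22 to 0.422. With the 4 group means subtracted the medians were 0.539 and 0.106. Over all libraries its coefficient of variation was 22.2%, where the other enzymes had 4.63% (Pgk1) to 9.30% (Eno2). The values over all libraries contain the genotype difference by which Gapdh was chosen. Within groups the SD of Gapdh was 1.51 CPM for males with Hras and 2.22 without it, and 5.65 CPM for females with Hras and 7.41 without it (n = 3 each).

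Gapdh had the lowest level of the 10 per length, in counts placed at the gene itself. Its copies at 95% identity held 34141 counts against 9689 at Gapdh, so its rank by RNA cannot be read from this order. Per kilobase of merged exon Aldoa came first with 504 ± 43.1 CPM per kb, followed by Pkm with 216 ± 15.2, Eno2 with 199 ± 18.6 and Tpi1 with 185 ± 16.1 (SD, n = 12). Pfkm at 133 ± 8.91 and Pgk1 at 132 ± 6.10 came next. Gpi1 at 107 ± 8.46, Pgam1 at 77.9 ± 6.13 and Hk1 at 48.5 ± 4.19 followed. The ranges of mean ± SD overlapped for Pfkm and Pgk1, for Pkm and Eno2, and for Eno2 and Tpi1. The enzymes were measured in the same libraries and vary together, so this overlap does not show that a pair is equal. Differences between enzymes within libraries were not tested. Gapdh was last at 11.2 ± 2.50 CPM per kb of merged exon, and it was also last per kilobase of its main transcript, at 36.5 ± 8.12 CPM per kb.

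Of the 10 enzymes Gapdh had the largest share of transcript windows found in other genes, at 81.6%. Pgk1 followed with 66.1% and Pgam1 with 37.9%, and both also had 100% of their coding windows in another gene. Pkm had 2.89% and the remaining 6 enzymes had 0%. The number of copies with counts separated Gapdh from Pgk1 and Pgam1. Gapdh had 70 pseudogenes, 67 of them with counts, and together they held 34141 counts against 9689 at Gapdh itself. The most counted copy of Pgk1 (Pgk1-rs7) held 462 counts and that of Pgam1 (Pgam1-ps2) 297, against 61135 and 32046 at the genes. Those of Pkm (Gm6560), Tpi1 (Tpi-rs11) and Gpi1 (Gm1840) held 1504, 634 and 109 counts. Hk1, Pfkm, Aldoa and Eno2 had 0 such copies.

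**Figure D3:**
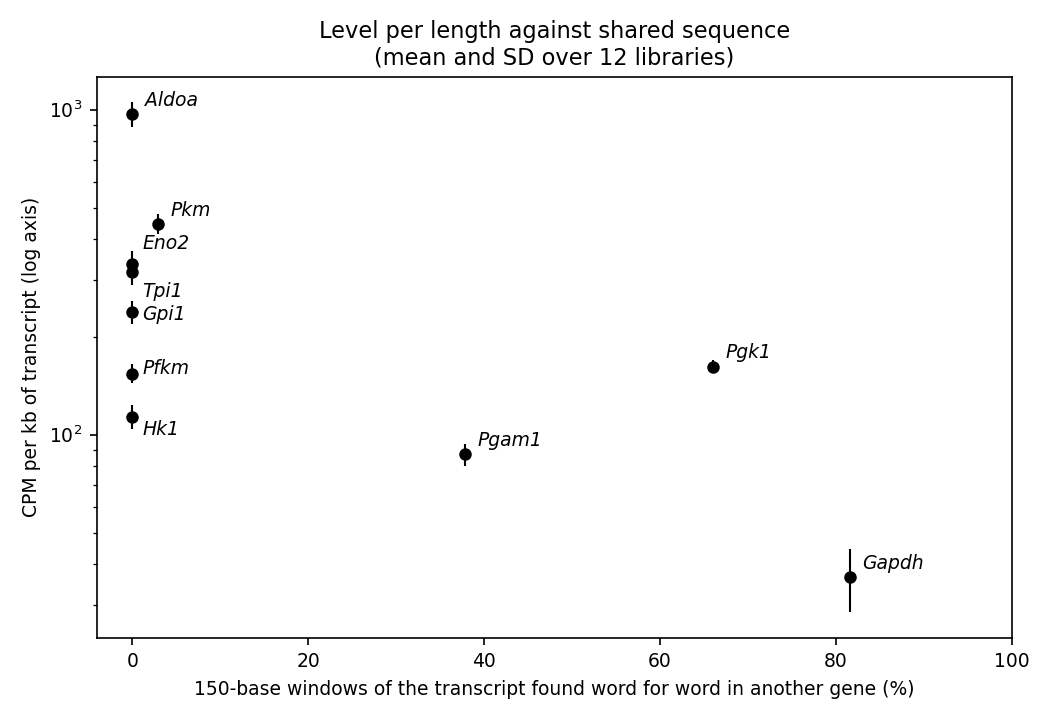
Mean level per kilobase of transcript (log axis, with the SD over 12 libraries) against the percentage of 150-base windows of the same transcript that occur word for word in another annotated gene, 1 point per enzyme. Gapdh stands at the lower right with 81.6% and 36.5 CPM per kb.

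Gm13394, the most counted copy over the 12 libraries together, differed far more between libraries than any enzyme. It was at 1.61, 1.19 and 1.31 CPM in APP/PS1 males and at 146, 136 and 144 CPM in knockout males. In females it was at 0.811, 131 and 1.58 CPM in APP/PS1 and at 160, 275 and 340 CPM in knockout mice. The 5 libraries with Gm13394 under 2 CPM were all APP/PS1 and had Gapdh at 52.5 to 60.9 CPM. The 7 others were the 6 knockouts and APP/PS1 female 2, and they had Gapdh at 29.6 to 44.4 CPM. The 2 highest Gm13394 values, in knockout females 2 and 3, stood beside the 2 lowest Gapdh values. Gm13394 ranked first among the copies only through the 7 libraries where it was high. In each of the 5 others it held 16 to 32 counts, fewer than Gm5559 and Gm12070. Its choice by total counts thus rests on these same values, and its pattern over genotypes is a description that supports nothing.

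The next most counted copies were not higher in this way. Gm5559 was at 56.7, 47.1 and 43.3 CPM in APP/PS1 males, 49.5, 44.8 and 44.9 CPM in knockout males, 41.4, 42.9 and 44.9 CPM in APP/PS1 females and 44.9, 43.1 and 57.2 CPM in knockout females. Its log2 genotype difference was 0.05 (SE 0.09). Gm12070, the third most counted copy, carries G361A and lay at 1.56 to 3.40 CPM in all libraries, with a log2 genotype difference of -0.47 (SE 0.18). Gm7336, named after its values were seen because its coding sequence has 0 differences from Gapdh, held 305 counts in all. The copies other than Gm13394 summed to 58.0 ± 5.25 CPM with Hras and 57.0 ± 5.63 CPM without it (SD, n = 6).

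**Figure D4:**
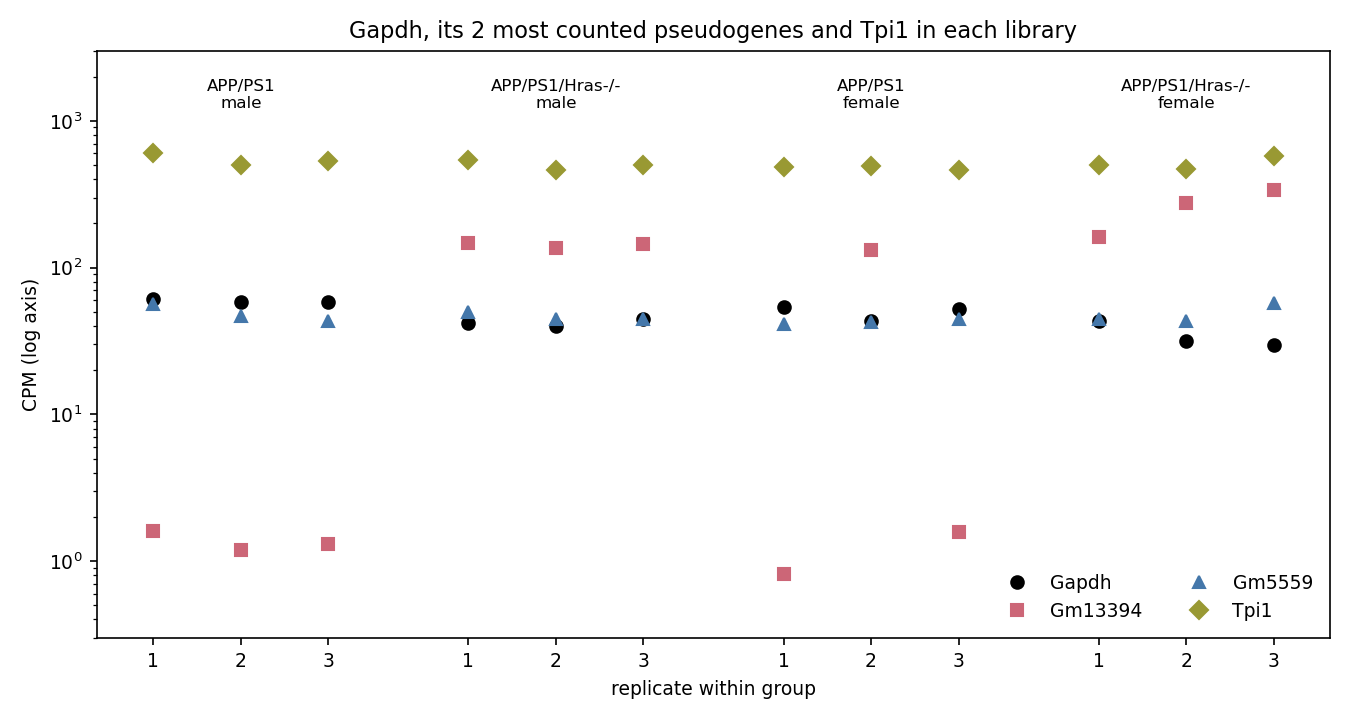
Level of Gapdh, of its pseudogenes Gm13394 and Gm5559 and of Tpi1 in each of the 12 libraries, in CPM on a log axis, by group and replicate. Gm13394 lies at 0.811 to 1.61 CPM in 5 APP/PS1 libraries and at 131 to 340 CPM in APP/PS1 female 2 and the 6 knockout libraries.

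The direction of the Gapdh difference depended on which loci were counted. Gapdh with all 70 copies summed to 135 ± 46.2 CPM with Hras and 296 ± 82.8 CPM without it (SD, n = 6), a log2 difference of 1.11 (SE 0.19, 95% interval 0.70 to 1.52). Without Gm13394 the sum of Gapdh and its copies differed by -0.23 (SE 0.06). Gapdh itself supplied 46.6% to 49.8% of the sum in 5 APP/PS1 libraries, 19.0% in APP/PS1 female 2 and 6.79% to 18.2% in the knockout libraries. How the counting treated reads with several alignments is not given in the sources used here, and its part in these values was not tested. The strain background of the mice is not given in those sources either. A Gapdh read that carried A346C would match Gm13394 and not the reference Gapdh, so transcripts of the 2 loci cannot be told apart in these counts.

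Sex did not separate the enzymes. Between females and males 0 of the 10 enzymes had an adjusted p under 0.05 by edgeR's quasi-likelihood test, where 0.0693% of all genes did, and DESeq2 and limma-voom also called 0. Gapdh, the 1 enzyme with an unadjusted p under 0.05 (4.65% of all genes), was at 50.6 CPM in males and 42.4 CPM in females, a log2 difference of -0.26 (SE 0.09, edgeR adjusted p = 0.95). Of the 9 others 8 were lower in females, by up to -0.12 for Eno2, and Pgk1 was higher by 0.04, with edgeR adjusted p from 0.989 to 0.993. The widest 95% interval bound of these 9 lay 0.28 from zero.

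Whether genotype acted differently in the sexes was tested as an interaction. For Gapdh the female minus male effect was -0.03 (SE 0.18, 95% interval -0.42 to 0.36, edgeR adjusted p = 0.974). All 9 other enzymes had a value above zero, from 0.13 (Pgam1) to 0.34 (Eno2), with a median of 0.19 beside -0.01 for all genes. Without knockout female 3 the 9 values stayed above zero but ran from 0.05 (Hk1) to 0.29 (Eno2), with a median of 0.14, and those of Hk1, Gpi1, Pgam1, Tpi1 and Aldoa shrank by over 1.5 times. Gapdh was then at 0.08. Other single libraries also moved values. Hk1 and Tpi1 were at 0.10 and 0.15 without APP/PS1 male 1, and Hk1 and Pgam1 at 0.27 and 0.25 without knockout female 2. Pfkm was at 0.12 without knockout male 1, Gpi1 at 0.12 without knockout male 2 and Pgam1 at 0.08 without knockout female 1. Pfkm was at 0.07 without the pair of libraries that stood apart. All 9 were lower in knockout males, from -0.13 (Pkm) to -0.05 (Hk1), and higher in knockout females, from 0.02 (Pgam1) to 0.22 (Eno2). By edgeR 0 of the 10 enzymes and 0% of all genes had an adjusted p under 0.05, and DESeq2 and limma-voom called 0. At an unadjusted p under 0.05, which 7.21% of all genes reached, there were 2 enzymes. They were Eno2 (0.34, SE 0.12) and Pkm (0.25, SE 0.12), each with an edgeR adjusted p of 0.667. The 9 enzymes vary together, so they are not 9 separate observations. RNA integrity was higher in every knockout male than in every APP/PS1 male. In females it ran the other way, at 8.3 to 8.5 in knockouts and 8.5 to 8.6 in APP/PS1. Over the 12 libraries all 9 had a Pearson r of log2 CPM with RNA integrity below zero, from -0.717 (Pkm) to -0.271 (Pgk1). That of Gapdh was -0.353. The part of RNA integrity in the values of either sex was not tested.

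In the wider pathway 0 genes passed edgeR's adjusted p of 0.05 in any of the lists below, in the genotype, sex or interaction contrast. Of other isoenzymes of the same steps 14 of 17 were tested, with 7 above and 7 below zero and a median log2 genotype difference of 0.01 (range -0.18 to 0.52). Of genes for glucose entry and its regulation 22 of 23 were tested (12 above zero, 10 below, median 0.0023, range -0.51 to 0.63), with 2 at an unadjusted p under 0.05. Of genes for pyruvate and lactate handling 24 of 26 were tested (14 above zero, 10 below, median 0.01, range -0.06 to 0.17) and of side branches 20 of 23 (9 above zero, 11 below, median -0.02, range -0.26 to 0.13). At an unadjusted p under 0.05 there were 0 of the isoenzymes, 0 of the pyruvate and lactate genes and 1 of the side branches, where 1.68% of all genes were. Some single genes thus differed by as much as Gapdh, with wide errors. They were Slc2a4, a glucose transporter gene at 1.68 CPM (-0.51, SE 0.26), Pfkfb1, a regulator of phosphofructokinase at 0.837 CPM (0.63, SE 0.26), and Eno1b, an enolase copy (0.52, SE 0.96), all named after their values were seen. Among 12 further genes in common use as references, Pgk1 left out, the median was -0.0055, with values from -0.19 to 0.12 and 0 at an unadjusted p under 0.05. Actb, the cytoskeletal actin that is often paired with Gapdh as a reference and is named here for that reason, averaged 772 CPM and differed by -0.0013 (SE 0.07).

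Gapdh shares its chromosome with both Tpi1 and Eno2. On chromosome 6 Tpi1 lies 347 kb and Eno2 392 kb from Gapdh, and 40.9 kb separate Eno2 from Tpi1. Of the 47 tested genes within 1 Mb of Gapdh 21 lay above zero and 26 below in the genotype contrast. Their median log2 difference was -0.01, beside 0.0024 for all genes tested. By edgeR 0 of the 47 had an adjusted p under 0.05, where 0.0173% of all tested genes did. At an unadjusted p under 0.05 there were 2, where 1.68% of all genes were. None of the 47 was as low as Gapdh. The 4 neighbours with the smallest p were C1s2, a complement serine protease gene, at 0.97 (SE 0.31), Ing4, a chromatin reader gene, at -0.37 (SE 0.15), Ncapd2, a condensin subunit gene, at -0.22 (SE 0.10), and Acrbp, a sperm acrosome protein gene, at -0.22 (SE 0.12). These 4 averaged 0.736, 2.97, 32.1 and 6.81 CPM, in the same order. Within 5 Mb 1 of 127 genes was as low as Gapdh or lower.

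**Figure D5:**
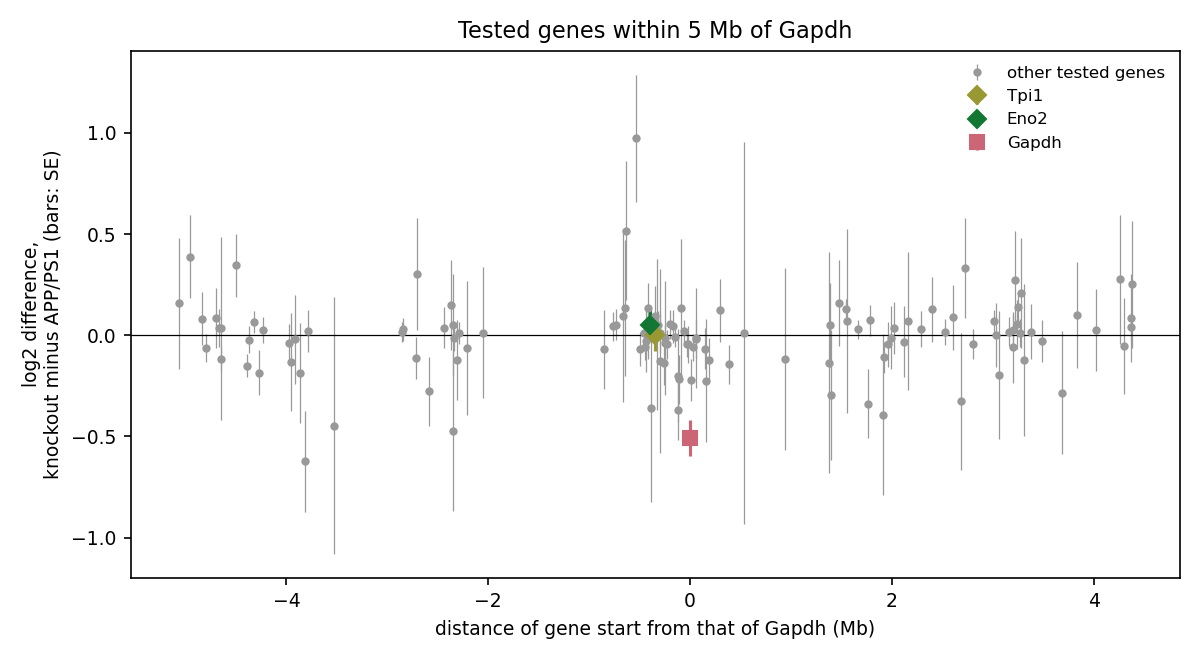
Log2 difference between knockout and APP/PS1 mice, with the SE as bars, for tested genes within 5 Mb of Gapdh, against the distance between gene starts in Mb. Gapdh lies at -0.51, while Tpi1 and Eno2 lie near zero.

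The genes whose levels followed Gapdh most closely were further away on the same chromosome. By Pearson correlation of log2 CPM over 12 libraries, among genes of at least 1 CPM, the first 5 were Mrpl35 (r = 0.933), Mbd4 (0.919), 0610040F04Rik (0.919), Fam234b (0.918) and Slc25a26 (0.852). All lie on chromosome 6, 9.32 to 53.3 Mb from Gapdh. Mrpl35, a mitochondrial ribosomal protein gene, averaged 22.8 ± 2.54 CPM with Hras and 16.0 ± 2.96 CPM without it. Mbd4, a DNA glycosylase gene, averaged 13.8 ± 0.997 and 9.77 ± 2.41 CPM (SD, n = 6). Of the 20 genes most like Gapdh 13 lie on chromosome 6, which carries 5.08% of genes at this level. These r values rest on the genotype difference by which Gapdh was chosen and on the shared scaling.

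With the 4 group means subtracted, the 5 genes most like Gapdh were Cd47 (r = 0.935), 2900026A02Rik (0.922), Jade2 (0.907), Aftph (0.907) and Umad1 (0.904), and 1 of them, Umad1, lies on chromosome 6. None of the 9 other enzymes was among either set of 5. Of the 20 genes most like Gapdh on this measure 6 lie on chromosome 6. Without subtraction, and so with the genotype difference included, the r of Gm13394 with Gapdh was -0.883.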

How the data were processed

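The authors deposited a table of raw counts per gene and library. Per the labels' protocols, RNA came from frontal cortex and libraries from a stranded mRNA kit. Trimmomatic 0.33, FastQC 0.11.7, HISAT2 2.1.0 and featureCounts are named in the submitters' processing notes, with the builds mm10 and mm9. For the annotation release, the strand setting and the handling of multiply aligned reads, the sources used here give nothing. Identifiers were matched to GENCODE M21, and 37 without a match held 0.00986% of counts.

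In edgeR 4.0.16 (R 4.3.3) genes were kept by filterByExpr, scaled by TMM and tested with the robust quasi-likelihood test on all 12 libraries, with Benjamini-Hochberg adjustment over 17307 genes. Genotype and sex came from an additive model, interaction and within-sex values from 4 group means. The fit was tested on simulated data. Alternatives were DESeq2 1.42.0, limma-voom (limma 3.58.1), other scalings and filters, RNA integrity as a covariate, and left-out libraries. Replicate numbers follow accession order and pair nothing. Separate mice are named in the series' design text.

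Pseudogenes were found with blastn 2.17.0 among GENCODE M21 transcripts, since no genome sequence was used. Windows were 150 bases, the read length per the labels. The rule for named genes took the 10 enzymes, list genes with an adjusted p under 0.05, the 5 genes most like Gapdh with and without group means, 4 neighbours within 1 Mb with the smallest p, and up to 3 pseudogenes per enzyme with the most counts. The members and lists were chosen with earlier results of these data known.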

Additional observations from a re-analysis of the deposited data

Results flagged for a closer look

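Among the 6 APP/PS1 libraries, Gm13394 in APP/PS1 female 2 stood far from the others, at 131 CPM where the next highest was 1.61 CPM. The same library had the lowest Gapdh level of its genotype, at 43.4 CPM, and the highest summed choroid plexus markers, at 3117 CPM. The part of those markers in the Gm13394 value was not tested. In knockout females 2 and 3, where Gm13394 was highest, the same markers summed to 68.9 and 11.4 CPM.

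Gm5559 in APP/PS1 male 1, at 56.7 CPM, stood apart from the other 5 APP/PS1 libraries, the next of which had 47.1 CPM. 24 sets of 6 libraries were checked in this way and 2 gave such a value, where chance gives about 1 in 20.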

How the results depend on the processing

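The Gapdh genotype difference stayed negative in all 23 alternative fits that counted Gapdh alone, from -0.59 to -0.46, and those of the 9 other enzymes lay between -0.08 and 0.14 in 207 values. Summing loci changed the sign: Gapdh with its copies at 95%, 90% and 98% identity differed by 1.11, 1.04 and 1.13, and Gapdh with Gm13394 by 1.62, or 1.97 without APP/PS1 female 2. The sum at 95% without Gm13394 differed by -0.23. The last 3 values were chosen after seeing the data. The number of copies was 152 at 90% and 37 at 98% identity, against 70. The genotype difference of Gapdh passed an adjusted p of 0.05 in 3 of the 23 fits. These were the fits with no filter on low counts (1 enzyme called) and with DESeq2 (1). The other was without knockout female 1 (0 to 1 over the left-out libraries). Because Gapdh was picked on this contrast, nothing is read from this number of fits. Genes called for genotype were 3, and 5 with no filter, 7 with DESeq2 and 3 to 4 with a library left out. Genes called for sex were 12, and 27 with DESeq2 and 9 to 20 with a library left out, with 20 without knockout male 2. The cause of these changes was not tested. Leaving out a library gave -0.59 to -0.46 for Gapdh and -0.60 to -0.43 for its log2 ratio to the other 9. For sex and interaction no enzyme passed the threshold in any alternative. Of the 9 other enzymes' genotype differences in the alternative fits, the highest was that of Eno2 with RNA integrity in the model. Eno2 was then at 0.14, beside 0.05 (SE 0.08) in the main fit. No paired analysis was possible because replicate numbers follow accession order. With 3 mice per group and 16 to 32 counts of Gm13394 in 5 libraries, small differences between copies are not detectable at this depth.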

Other observations

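The genes whose levels followed Gm13394 most closely over the 12 libraries were looked up after seeing the data. By Pearson correlation of log2 CPM they included Gm5905 on chromosome 7 and Ift122, Dnah6 and Smim10l1 on chromosome 6, with r from 0.835 to 0.877. Ift122, an intraflagellar transport gene, was at 35.7 to 38.2 CPM in 5 APP/PS1 libraries, at 48.1 CPM in APP/PS1 female 2 and at up to 56.0 CPM in the knockouts, all above those 5. Dnah6, an axonemal dynein gene, was at 0.535 to 3.95 CPM in the same 5 libraries, at 13.0 CPM in APP/PS1 female 2 and at 7.62 to 18.4 CPM in the knockouts. Gm5905 did not place APP/PS1 female 2 with the knockouts: it was at 0.749 CPM there, at 0.138 to 0.709 CPM in the other APP/PS1 libraries and at 49.0 to 64.5 CPM in the knockouts. Of the 20 genes most like Gm13394, 9 lie on chromosome 6, as do 9 of the 20 that ran most opposite to it, where 5.08% of genes at this level do. Gm13394 itself lies on chromosome 2.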
